A study of Drosophila melanogaster with 11 samples.

Results

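Embryos depleted of maternal Domino were compared with control embryos at stage 5, and the genes that changed are described here by function and pathway. The comparison uses 7 of the 11 RNA-seq libraries of the series, 3 of Ctrl embryos (replicates 2, 3 and 4) and 4 of DomKD embryos (replicates 1 to 4), and the 4 libraries of unfertilized Ctrl eggs serve to show which transcripts the mother deposits. Both embryo groups are Drosophila melanogaster at stage 5 (NC14), when zygotic genome activation (ZGA) takes place. DomKD embryos were laid by females in which the germline driver mat-alpha-Gal4 expressed a hairpin RNA against both domino isoforms, and Ctrl embryos and eggs come from females with the same driver and a TRiP control line. GEO gives the genotypes as the codes t180 (Ctrl) and t216 (DomKD). The depletion is therefore of the maternal supply, and the embryo's own dom gene was not mutated. Each group comes from 1 genotype, so a DNA difference between the lines near a gene cannot be told apart from an effect of the knockdown. Nothing states whether the libraries of a group are separate collections, so the p-values measure the spread between these libraries.

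Domino is the ATPase of the complexes that exchange histone H2A for H2A.Z (His2Av in Drosophila), and an isoform of it works with the acetyltransferase Tip60. H2A.Z sits at the first nucleosomes of many promoters, where it is linked to transcription. At stage 5 the embryo holds RNA of 2 origins, transcripts loaded during oogenesis that are being cleared and transcripts made by its own nuclei, and the blastoderm is being patterned while its nuclei become enclosed in cells. A bulk RNA level at this stage is the balance of deposit, clearance and new transcription, and fewer cells of a type and less RNA per cell cannot be told apart in it.

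The 7 embryo libraries held 11809453 to 16310645 counts on genes, and 7727 of 17753 genes had a mean of at least 10 counts and were tested. Levels are given in CPM, read counts of a gene scaled to the TMM-normalized library total, in the order Ctrl replicates 2, 3 and 4 and then DomKD replicates 1 to 4. Changes are log2 fold changes of DomKD over Ctrl from edgeR's quasi-likelihood test, with a standard error (SE) and a p-value adjusted over all 7727 genes, and a gene was called at an adjusted p under 0.05. The knocked-down gene dom was the check of the labels, at 1976, 1844 and 1912 CPM in Ctrl and 66.2, 75.4, 105 and 56.7 CPM in DomKD embryos, 25.2-fold lower. The first principal component, 64.5% of the variance, separated DomKD from Ctrl libraries. The second (12.5%) did not, with Ctrl replicate 2 and DomKD replicate 4 at one end and Ctrl replicate 4 and DomKD replicates 1 and 3 at the other.

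Of the 7727 genes, 1195 (15.5%) were lower and 820 (10.6%) were higher in DomKD embryos, and 568 (7.35%) were at least 2-fold lower against 96 (1.24%) at least 2-fold higher. The normalized values of the groups did not overlap in 35.2% of the tested genes. These shares are the background for every group below. For maternally deposited genes, with over 5 TPM in at least 3 of 4 egg libraries, the background was 13.2% lower and 10.5% higher of 6274 genes. For the 1453 other genes it was 25.4% lower and 11% higher. Sorted into 82 lists by function, which hold 2467 of the tested genes and 688 of the called ones, the calls were unevenly spread. Genes of cell adhesion and the extracellular matrix, homeotic genes, and small nuclear and nucleolar RNAs were called lower in 36.5% to 46.2% of their members. The cohesin (37.5% lower) and centriole (50% lower) lists were added after values were seen and are no evidence for this spread. Ribosomal proteins, proteasome subunits and chaperones were called higher in 30.3% to 41.2% of their members, with mostly small changes that depended on the scaling. The fatty acid list was also added after values were seen (57.1% higher, beside 22.7% of the lipid metabolism list set with the design). The share of lower calls also fell with the mean count, from 31.5% of the genes with 10 to 50 counts to 4.78% of those over 5000, and higher calls went the other way (5.04% and 19.6%).

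**Figure D1:**
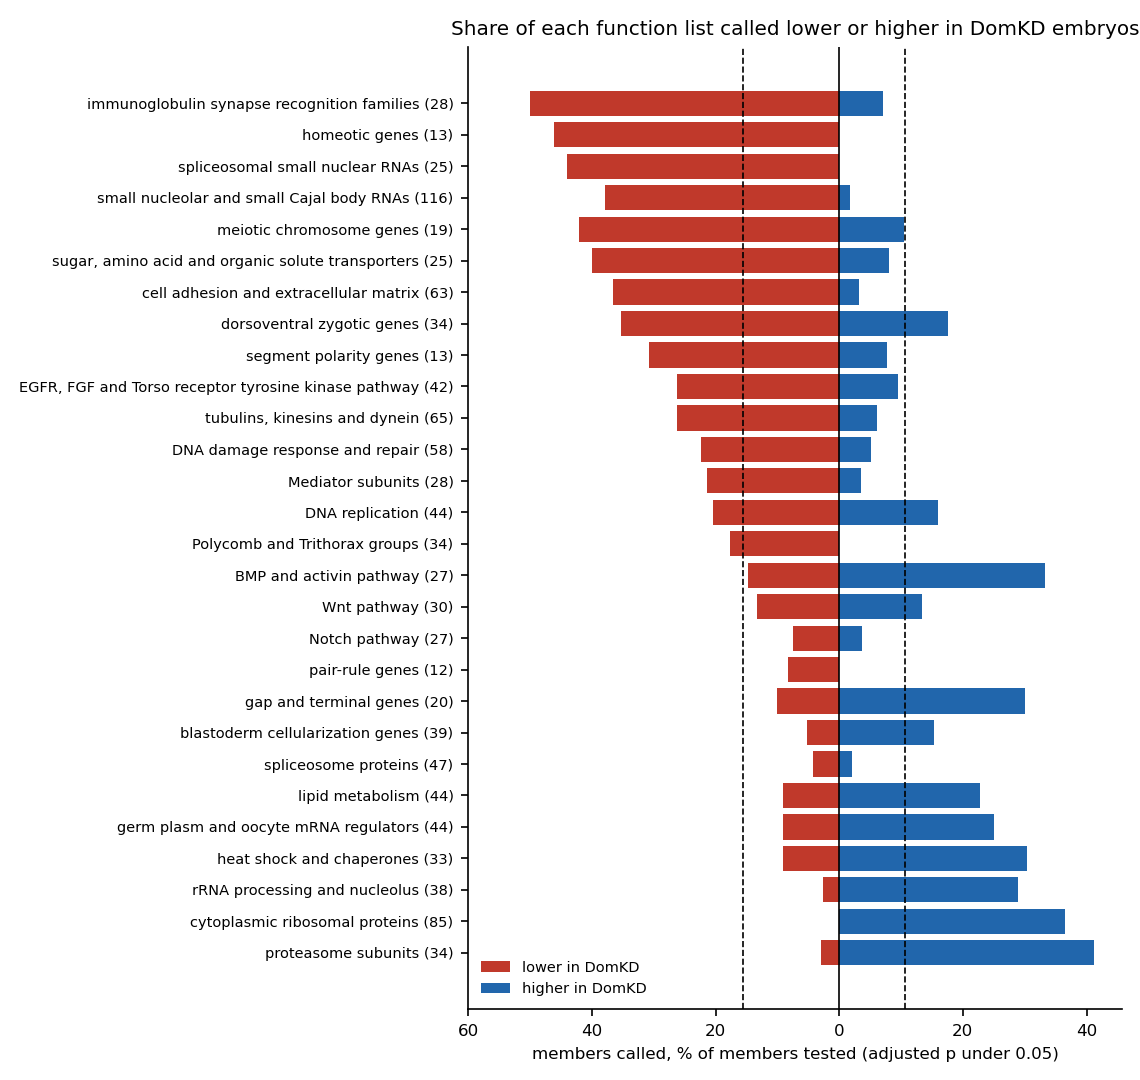
Share of the tested members of function lists called lower (to the left) or higher (to the right) in DomKD embryos, in percent of the members tested (number in parentheses), with the background shares of all 7727 genes, 15.5% lower and 10.6% higher, as dashed lines. Adhesion, homeotic and small RNA lists extend to the left, and ribosomal protein and proteasome lists to the right.

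Cell adhesion and the extracellular matrix formed the largest group of protein-coding genes that fell. Cells of the blastoderm begin to use cadherins, integrins and a basement membrane when they fold and move at gastrulation. Of 63 tested members, 23 (36.5%) fell and 2 rose. Their median log2 fold change was -0.32, beside 0.0028 over all genes and -0.157 over all genes without maternal deposit. The summed level of the list overlapped between groups, at 10782 to 12796 CPM in Ctrl and 10448 to 12367 CPM in DomKD embryos. Of the 23 that fell, 20 were not maternally deposited, out of 44 such members tested, and 16 fell at least 2-fold. The count of lower members lay between 20 and 26 when single libraries were left out and was 25 with size factors from Zld-dependent genes. With a minimum mean of 100 counts, which leaves fewer members, it was 13.

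The giant cadherins came first. The gene fat (ft, FBgn0001075, chromosome 2L, positions 4198404 to 4221796, minus strand of dm6) encodes the receptor of a pair that orients cells in the plane of the epithelium and feeds into the Hippo pathway. The level of ft was 48.5, 40.5 and 48 CPM in Ctrl and 7.58, 6.45, 11.8 and 7.25 CPM in DomKD embryos, 5.56-fold lower (log2 fold change -2.47, SE 0.18, edgeR adjusted p = 8.96e-05). The gene dachsous (ds) encodes its ligand, which lay at 8.74, 7.52 and 9.75 CPM in Ctrl and 1.96, 1.24, 2.19 and 1.32 CPM in DomKD embryos (log2 fold change -2.38, SE 0.22, edgeR adjusted p = 0.000218). For both genes the Ctrl libraries lay close together and every DomKD library lay far below them. The gene dachs, which acts downstream of ft, was lower too, and with these the Hippo and planar polarity list held 3 lower and 3 higher members of 27. CadN, a classical cadherin of mesoderm and neurons, had 49.1, 33 and 56.1 CPM in Ctrl and 21.6, 6.58, 19 and 12.1 CPM in DomKD embryos, 3.14-fold lower (edgeR adjusted p = 0.00635). Cad74A, another cadherin, was 2.48-fold lower, from 70.8, 53.8 and 81.6 to 26.9, 20.5, 42.5 and 21.4 CPM (edgeR adjusted p = 0.00408). Of 11 cadherin superfamily members these 4 fell and none rose (in edgeR also none at an unadjusted p under 0.05, and none by DESeq2), and the remaining 7 had log2 fold changes between -0.503 and 0.00395. DomKD replicate 2 was the lowest library for ft, ds, CadN and Cad74A alike, and the groups overlapped for none of them. The cadherin list was added after values were seen.

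The basement membrane showed a split among its chains. Laminin is a trimer of an alpha, a beta and a gamma chain that binds integrins on the cell surface. The beta chain LanB1 fell from 31, 24.7 and 30.9 to 9.7, 11, 11.3 and 7.77 CPM, 2.91-fold (log2 fold change -1.54, SE 0.15, edgeR adjusted p = 0.000252). The gamma chain LanB2 fell from 26.9, 20.5 and 31.7 to 7.9, 4.5, 10.1 and 6.23 CPM, 3.71-fold (SE 0.24 on the log2 scale, edgeR adjusted p = 0.000753). The alpha chain wb fell 2.09-fold, from 44.5, 31.4 and 54.5 to 23, 17.8, 22.6 and 19.9 CPM (edgeR adjusted p = 0.00247). The other alpha chain, LanA, did not pass the test, at 12.7, 11.8 and 11.2 CPM in Ctrl and 14.8, 13.4, 11.3 and 13.2 CPM in DomKD embryos (log2 fold change 0.14, SE 0.13, edgeR adjusted p = 0.449), and its groups overlapped. Among the receptors, the alpha subunits if and mew fell and the common beta subunit mys did not pass. The level of if was 13.6, 9.4 and 14.2 CPM in Ctrl and 4.89, 0.717, 2.1 and 3 CPM in DomKD embryos (4.7-fold, edgeR adjusted p = 0.00453), and that of mew 21.6, 22.1 and 30.6 and 9.29, 4.37, 8.76 and 5.64 CPM (3.56-fold, edgeR adjusted p = 0.000983). The gene mys, which is maternally deposited (46.9 TPM in eggs), had 175, 164 and 180 CPM in Ctrl and 176, 179, 187 and 167 CPM in DomKD embryos, with overlapping groups (log2 fold change 0.033, SE 0.065, edgeR adjusted p = 0.742). ItgaPS5, a further alpha subunit, was at 1.59, 1.61 and 2.26 CPM and fell to 0.407, 0.13, 0.438 and 0.147 CPM, a low level throughout. The remaining beta subunit, Itgbn, went the other way, from 1.36, 2.01 and 1.17 to 6.36, 7.43, 7.1 and 7.69 CPM, 4.68-fold higher (log2 fold change 2.23, SE 0.22, edgeR adjusted p = 0.000248). Itgbn shares 10.1% of its exons with CG9265 on the other strand, and the strand setting of the counting is not given in the sources used here. In total 7 of 16 laminin, collagen IV and integrin genes fell and 1 rose, and all 7 were genes without maternal deposit, out of 9 such genes tested. This list, too, was added after values were seen.

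**Figure D2:**
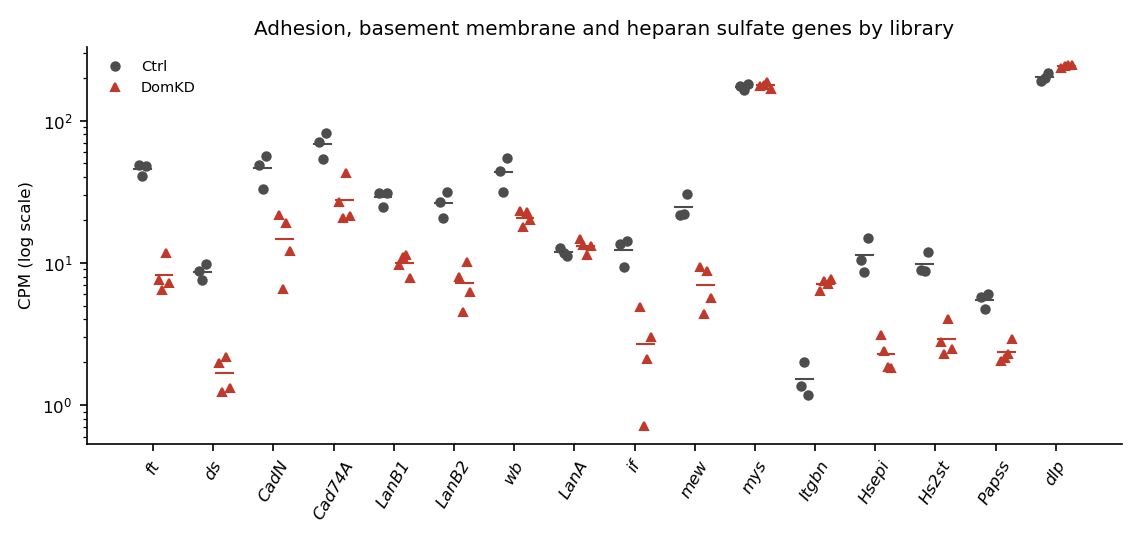
Level of adhesion, basement membrane and heparan sulfate genes in each library, in CPM on a log scale, with circles for the 3 Ctrl and triangles for the 4 DomKD libraries. The DomKD triangles lie below the Ctrl circles for ft, ds, LanB1, LanB2, if and mew, overlap them for LanA and mys, and lie above them for Itgbn.

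Heparan sulfate, the sulfated sugar chain of cell surface proteoglycans that holds Wnt, Hedgehog, BMP and FGF ligands, had 6 of 15 genes lower and 2 higher. The list was added after values were seen, and enzymes that modify the chain were among its lower genes. Hsepi, the epimerase, was at 10.5, 8.59 and 14.9 CPM in Ctrl and 3.1, 2.41, 1.84 and 1.83 CPM in DomKD embryos (4.9-fold lower, SE 0.25 on the log2 scale, edgeR adjusted p = 0.000344). Hs2st, a sulfotransferase, was at 8.86, 8.73 and 11.9 CPM and 2.77, 2.28, 4.03 and 2.49 CPM (3.42-fold lower, edgeR adjusted p = 0.000642). Papss, which makes the sulfate donor of these enzymes, was at 5.79, 4.77 and 6 CPM and 2.04, 2.15, 2.28 and 2.93 CPM (2.34-fold lower, edgeR adjusted p = 0.00198). In each of these 3 genes all DomKD libraries lay below all Ctrl libraries. They are maternally deposited, with 31, 77 and 34.8 TPM in eggs, and had already dropped below that level in Ctrl embryos, to 7.39, 11.8 and 3.63 TPM. All 3 had a mean of 50 to 100 counts, a range in which 34.3% of maternally deposited genes were lower. The sulfotransferase sfl was lower by a smaller step (log2 fold change -0.32, edgeR adjusted p = 0.0094) and was not called with size factors from Zld-dependent genes (edgeR adjusted p = 0.0679). The core proteins that carry the chains moved apart. The glypican dally was at 2.01, 1.88 and 1.72 CPM and 0.978, 0.196, 0.964 and 0.586 CPM (log2 fold change -1.50, SE 0.40, edgeR adjusted p = 0.022), but the call was lost without Ctrl replicate 2, 3 or 4 (0.057, 0.0513 and 0.0506). The glypican dlp was higher, at 191, 200 and 215 CPM and 236, 242, 246 and 246 CPM (log2 fold change 0.27, edgeR adjusted p = 0.0118), and not with size factors from Zld-dependent genes (edgeR adjusted p = 0.558).

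The immunoglobulin families that guide synapse partners in the later nervous system were also lower. They comprise the dpr genes and their DIP partners, the side and beat genes and the Dscam genes. Of 28 tested members, 14 fell and 2 rose, with a median log2 fold change of -0.77. These are rare transcripts at stage 5, with 11 of the 14 under a mean of 50 counts, a range in which 28.6% of genes without maternal deposit were lower. Without Ctrl replicate 2 or Ctrl replicate 4, 9 were lower, and without Ctrl replicate 3 or 4 or DomKD replicate 2, 3 or 4, 1 was higher. A minimum mean of 100 counts left 1 lower gene, and the median of the members left was 0.187. The clearest case was dpr4 (FBgn0053512, chromosome 3R, positions 11533483 to 11542949, minus strand), which had 1.95, 2.01 and 4.68 CPM in Ctrl embryos, from 33, 30 and 60 counts, and 0, 0, 0 and 0.0733 CPM in DomKD embryos, from 1 count in all. Part of its exons overlaps asRNA:CR45056. The gene side-V was at 7.5, 3.56 and 8.97 CPM in Ctrl and 2.36, 0.587, 2.02 and 1.61 CPM in DomKD embryos (edgeR adjusted p = 0.00645). The gene dpr19 was at 2.19, 3.29 and 5.3 CPM and 1.14, 0.522, 1.05 and 0.44 CPM (edgeR adjusted p = 0.00416). The gene beat-IIIc was at 9.39, 9.06 and 11 CPM and 4.32, 3.91, 4.82 and 2.42 CPM, 2.55-fold lower (edgeR adjusted p = 0.00198). No DomKD library reached the lowest Ctrl library in any of these genes.

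The Dscam paralogs moved in opposite directions. Dscam2 fell from 4.25, 6.11 and 5.07 to 1.22, 2.28, 2.8 and 1.47 CPM (log2 fold change -1.40, edgeR adjusted p = 0.00602). Dscam4 (FBgn0263219, chromosome 3L, positions 8238647 to 8282398, plus strand) was near absent in Ctrl embryos, at 0.0591, 0.201 and 0.078 CPM, and was at 14.3, 19.4, 22.3 and 21.4 CPM in DomKD embryos (edgeR adjusted p = 4.55e-06), the largest increase of all genes. It had 0 TPM in eggs. The pan-neuronal gene elav, an RNA-binding protein whose transcripts are already present at stage 5, fell from 32.1, 32.6 and 46.9 to 11.9, 8.41, 14.5 and 5.57 CPM (3.71-fold, SE 0.27 on the log2 scale, edgeR adjusted p = 0.00133), and 34.2% of its exonic length overlaps other genes, among them lncRNA:enrr on the same strand. Of 6 tested neuronal markers, elav and futsch were lower and Appl was higher, and their summed level was 90.0 to 111 CPM in Ctrl and 59.4 to 84.3 CPM in DomKD embryos. Glial markers had 3 lower genes of 5 (nrv2, gcm and loco), 1 higher without DomKD replicate 1, and 1 lower without Ctrl replicate 2, Ctrl replicate 4, DomKD replicate 2 or DomKD replicate 4. The part of these cell types in the lower immunoglobulin genes was not tested.

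Patterning genes are given by tier, and the difference between tiers was not tested. The gap and terminal genes, which lay out broad regions along the anterior-posterior axis, had 6 of 20 members higher and 2 lower. The pair-rule genes, which follow them, had 1 of 12 lower and none higher (in edgeR none at an unadjusted p under 0.05, and none by DESeq2). The segment polarity genes (4 of 13 lower, 1 higher) and the homeotic genes (6 of 13 lower, with none higher at an unadjusted p under 0.05 in edgeR or by DESeq2), which come later, had more lower than higher members, beside the 25.4% lower of all genes without maternal deposit. The level of hb was 426, 475 and 467 CPM in Ctrl and 619, 663, 647 and 575 CPM in DomKD embryos (log2 fold change 0.46, SE 0.07, edgeR adjusted p = 0.00167), and that of tll 88.7, 113 and 124 CPM and 183, 167, 171 and 132 CPM (log2 fold change 0.59, SE 0.14, edgeR adjusted p = 0.0113). Both gap genes were above every Ctrl library in every DomKD library. The call of hb was lost with size factors from Zld-dependent genes (edgeR adjusted p = 0.0912), and 2 gap and terminal genes stayed called higher there. Their number was also 2 without DomKD replicate 2 or 3, and 3 without Ctrl replicate 3 or DomKD replicate 1, while 1 was lower without Ctrl replicate 2, Ctrl replicate 4 or DomKD replicate 4. In the segment polarity list 2 were higher without Ctrl replicate 4. The pair-rule genes eve (13.2, 13.2 and 20 CPM in Ctrl and 19.5, 16, 19.1 and 14 CPM in DomKD embryos) and ftz (37.7, 34.8 and 47.1 CPM and 48.7, 43.5, 51.4 and 41.8 CPM) did not pass the test, at edgeR adjusted p of 0.584 and 0.222, and their groups overlapped. The single lower pair-rule gene, sob, was lost without Ctrl replicate 3 or 4 or DomKD replicate 2 or 4.

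The homeotic genes give each segment its identity. The median log2 fold change of the 13 tested was -0.91, and -0.146 for the members left by a minimum mean of 100 counts. The summed level of the list overlapped between groups, at 697 to 852 CPM in Ctrl and 627 to 756 CPM in DomKD embryos. Antp, which specifies thoracic segments, was at 20.9, 11.3 and 18.2 CPM in Ctrl and 7.25, 2.48, 6.66 and 5.5 CPM in DomKD embryos (3.11-fold lower, SE 0.32 on the log2 scale, edgeR adjusted p = 0.00561). Its exons overlap CG46458 on the same strand by 50.1%. The trunk factor tsh, a zinc finger protein, was at 28.8, 20.7 and 28.9 CPM and 9.62, 6.13, 8.32 and 7.03 CPM (3.37-fold lower, SE 0.18 on the log2 scale, edgeR adjusted p = 0.000298). The head gene Dfd was at 7.8, 4.9 and 7.8 CPM and 3.26, 1.69, 2.8 and 2.56 CPM (2.67-fold lower, edgeR adjusted p = 0.00368). Scr, Ubx and Abd-B were lower at levels under 5 CPM, and the calls of Ubx (edgeR adjusted p = 0.0297) and Abd-B (edgeR adjusted p = 0.00963) were lost in some alternatives. DomKD replicate 2 was the lowest library for Antp, tsh and Dfd, and all DomKD libraries lay below all Ctrl libraries in the 6 genes. Without Ctrl replicate 2, 3 homeotic genes were lower in place of 6. None of the 6 is maternally deposited, and a minimum mean of 100 counts left 2 of them called.

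**Figure D3:**
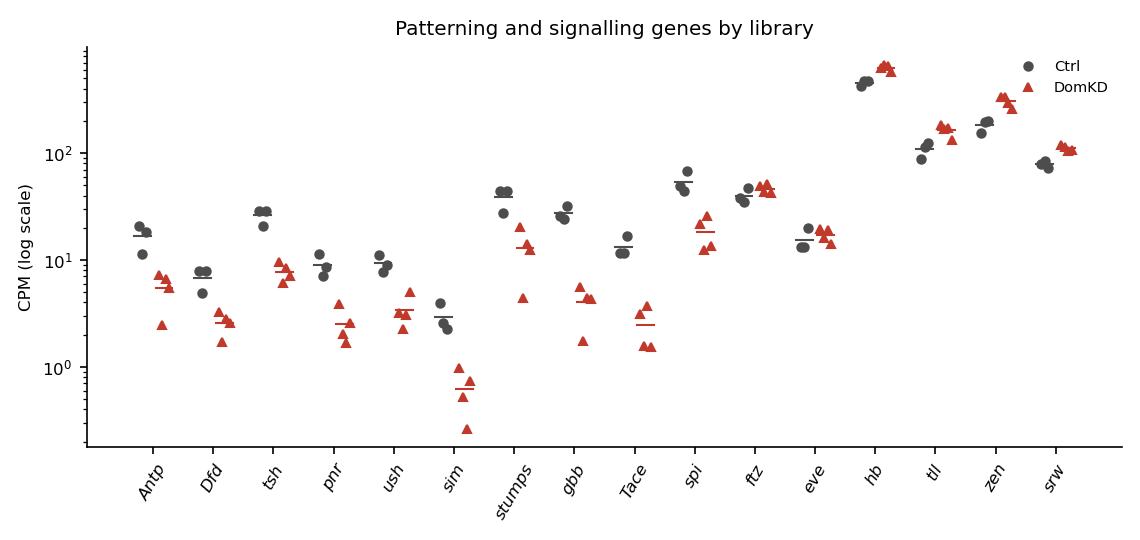
Level of patterning genes in each library, in CPM on a log scale, with circles for Ctrl and triangles for DomKD libraries. The DomKD triangles lie above the Ctrl circles for zen, hb and tll, overlap them for eve and ftz, and lie below them for the homeotic genes and for pnr, ush and sim.

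Zygotic genes of the dorsoventral axis changed in both directions, dorsal genes included. Of 34 zygotic dorsoventral genes 12 were lower and 6 higher, but 1 was higher with size factors from Zld-dependent genes, where 12 stayed lower. The homeobox gene zen, an early target of BMP signalling in the amnioserosa, was at 155, 195 and 199 CPM in Ctrl and 331, 331, 296 and 256 CPM in DomKD embryos (log2 fold change 0.73, SE 0.12, edgeR adjusted p = 0.00198). The secreted BMP regulators tld, tsg and srw were higher as well, with log2 fold changes of 0.44, 0.45 and 0.49 (edgeR adjusted p = 0.0126, 0.00469 and 0.00266), and all 3 calls were lost with size factors from Zld-dependent genes. The GATA factor pnr fell from 11.3, 7.12 and 8.5 to 3.83, 2.02, 1.66 and 2.56 CPM, 3.57-fold (log2 fold change -1.83, SE 0.27, edgeR adjusted p = 0.0015). Its cofactor ush fell from 11, 7.72 and 9.05 to 3.18, 2.28, 3.07 and 4.98 CPM, 2.74-fold (edgeR adjusted p = 0.00284). The groups did not overlap in either gene. The LIM factor tup was lower (17.1, 13 and 22.3 CPM in Ctrl and 10.8, 5.54, 10.2 and 6.81 CPM in DomKD embryos, edgeR adjusted p = 0.0132), a call lost without Ctrl replicate 4 (0.0596). In the neurectoderm and midline, ind was at 4.78, 2.01 and 2.73 CPM and 1.22, 1.04, 0.701 and 1.17 CPM and sim at 3.96, 2.55 and 2.26 CPM and 0.978, 0.522, 0.263 and 0.733 CPM (edgeR adjusted p = 0.00784 and 0.00243). Of the segment polarity genes, gsb fell from 3.84, 3.02 and 3.43 to 1.63, 0.978, 1.14 and 0.879 CPM, mid from 6.14, 4.5 and 4.37 to 2.61, 1.76, 1.84 and 1.98 CPM, and wg, the Wnt ligand, from 25.4, 18.7 and 22.1 to 17.4, 11.7, 11.7 and 13.8 CPM (edgeR adjusted p = 0.00204, 0.00274 and 0.0137). The gene inv, the paralog of engrailed, rose from 1.36, 1.14 and 0.936 to 2.69, 2.35, 3.51 and 2.34 CPM (edgeR adjusted p = 0.00759). For wg the highest DomKD library lay close below the lowest Ctrl library, while for gsb, mid and inv the distance was wider.

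Of 42 receptor tyrosine kinase pathway genes 11 were lower and 4 higher. Without Ctrl replicate 4, 6 were lower and 2 higher, without DomKD replicate 1, 9 were higher, without DomKD replicate 2, 2 were higher, and with size factors from Zld-dependent genes none was. Among the lower ones were the FGF pathway genes ths, htl and stumps, named after their values were seen, and bnl, another FGF ligand. FGF signals through the receptor Htl and its adaptor Stumps let mesoderm cells spread after gastrulation. The ligand ths was at 32.5, 19.7 and 40.9 CPM in Ctrl and 19.3, 8.28, 16.6 and 12.8 CPM in DomKD embryos (log2 fold change -1.13, edgeR adjusted p = 0.02). The receptor htl was at 31.5, 26.7 and 33.8 CPM and 25.7, 13, 15.2 and 14.4 CPM (log2 fold change -0.85, edgeR adjusted p = 0.0182), and the adaptor stumps at 44, 27.6 and 43.7 CPM and 20.4, 4.43, 14.1 and 12.5 CPM (log2 fold change -1.59, SE 0.38, edgeR adjusted p = 0.0128). DomKD replicate 1 was the highest and DomKD replicate 2 the lowest DomKD library in each of the 3 genes, and the groups did not overlap. Without Ctrl replicate 4 the calls of ths and htl were lost (0.0873 and 0.0668), and htl also without DomKD replicate 2 (0.0501). In the EGF receptor branch, spi, the main ligand, fell from 49.5, 44.2 and 67.7 to 21.8, 12.3, 25.5 and 13.4 CPM (2.96-fold, edgeR adjusted p = 0.00205). The exchange factor Sos, which passes the signal to Ras, fell from 35, 24.3 and 38.8 to 12.9, 14.9, 17 and 15 CPM (2.18-fold, edgeR adjusted p = 0.00139). The inhibitor sty was at 12.5, 9.06 and 12 CPM and 8.8, 5.67, 5.7 and 3.88 CPM (edgeR adjusted p = 0.0238), a call lost without Ctrl replicate 2 or 4 or DomKD replicate 2. The protease gene Tace, whose product sheds ligands from the cell surface, is in the Notch list and not in this one. It fell from 11.5, 11.5 and 16.9 to 3.1, 1.56, 3.68 and 1.54 CPM, 5.48-fold (log2 fold change -2.45, SE 0.30, edgeR adjusted p = 0.000581). Of 27 Notch pathway genes 2 were lower (7.41%) and 1 higher (3.7%), below the background of 15.5% and 10.6%. Without DomKD replicate 1, 5 were lower and 4 higher.

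The BMP and activin pathway had 4 of 27 members lower and 9 higher. The lower ones were the ligand gbb, the receptors wit and babo and the glypican dally. The type II receptor wit was at 4.73, 4.83 and 3.35 CPM in Ctrl and 1.47, 1.11, 1.49 and 1.47 CPM in DomKD embryos (log2 fold change -1.65, SE 0.23, edgeR adjusted p = 0.00105). The activin-type ligand myo was higher, at a mean of 225 ± 18.4 CPM in Ctrl (SD, n = 3) and 309 ± 21.6 CPM in DomKD embryos (n = 4), with no overlap of the groups (log2 fold change 0.46, edgeR adjusted p = 0.00298). Size factors from Zld-dependent genes left 1 of the 9 higher genes, leaving out DomKD replicate 2 left 5, and leaving out Ctrl replicate 2 or 4 left 2 lower ones. The Wnt receptors drl and fz2 fell, drl from 11.1, 7.92 and 11.7 to 5.46, 1.89, 3.33 and 3.52 CPM (2.91-fold, edgeR adjusted p = 0.00467) and fz2 from 66.2, 42 and 56.6 to 25.8, 25.5, 25.5 and 33.6 CPM (1.99-fold, edgeR adjusted p = 0.00213), with no overlap between the groups in either. In total 4 of 30 Wnt pathway genes fell and 4 rose, a lower share of 13.3% beside the background of 15.5%, and 1 was higher without Ctrl replicate 2, 3 or 4 or DomKD replicate 2 and none with size factors from Zld-dependent genes. The Hedgehog coreceptor ihog fell from 27.8, 31 and 24.8 to 7.74, 11.2, 8.94 and 13.3 CPM (2.69-fold, edgeR adjusted p = 0.000647). JAK/STAT had no lower and 3 higher members of 13, which were none with size factors from Zld-dependent genes. In edgeR 2 members were lower at an unadjusted p under 0.05 and 1 was called without Ctrl replicate 2, and DESeq2 called none lower.

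More chromosome maintenance genes fell than rose, and nearly all of them are deposited by the mother. Cohesin holds sister chromatids together, condensin compacts them for division, and the SMC5/6 complex acts in repair. Of 24 members of this list, which was added after values were seen, 9 fell and 1 rose, and 23 of the 24 are maternally deposited. The cohesin core was involved in several of its subunits. SMC1 (FBgn0040283, chromosome 3R, positions 24058287 to 24062815, plus strand) was at 23.4, 22.6 and 27.8 CPM in Ctrl and 4.24, 5.35, 6.92 and 5.42 CPM in DomKD embryos, 4.49-fold lower (log2 fold change -2.17, SE 0.16, edgeR adjusted p = 8.96e-05). SA1, the stromalin subunit, was at 26.8, 24.2 and 33.6 CPM and 6.03, 6.45, 8.5 and 4.1 CPM, 4.51-fold lower (SE 0.21 on the log2 scale, edgeR adjusted p = 0.000249). SMC3, the partner of SMC1, was at 44, 35.7 and 44.5 CPM and 19.2, 17.6, 16.7 and 22.3 CPM, 2.18-fold lower (edgeR adjusted p = 0.000409). SMC6 of the repair complex was at 20.1, 16.2 and 20.3 CPM and 6.36, 7.04, 4.99 and 8.5 CPM, 2.79-fold lower (edgeR adjusted p = 0.000509), and Cap-D3 of condensin II was 2.23-fold lower (edgeR adjusted p = 0.00433). In none of these genes did the groups overlap. Their egg levels were high and had dropped in Ctrl embryos before the comparison, from 140 to 12.5 TPM for SMC1 and from 106 to 15.4 TPM for SA1. In DomKD embryos they stood at 2.67 and 3.29 TPM. The count of lower members was 9 or 10 with each library left out, and the higher one, barr, was lost without Ctrl replicate 4 and with size factors from Zld-dependent genes.

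Centriole assembly, a list added after values were seen, had 7 of 14 members lower and none higher in edgeR, with 2 higher at an unadjusted p under 0.05 or by DESeq2. With each library left out in turn 7 were lower, and 1 was higher without Ctrl replicate 2 or DomKD replicate 3. Sas-6, which sets the symmetry of the centriole, was at 9.21, 7.79 and 9.12 CPM in Ctrl and 2.69, 2.15, 3.42 and 3.44 CPM in DomKD embryos (2.99-fold lower, edgeR adjusted p = 0.000612). Sas-4, which brings in centriolar tubulin, was at 11.1, 12.3 and 12.6 CPM and 5.38, 4.24, 4.47 and 4.62 CPM (2.57-fold lower, SE 0.14 on the log2 scale, edgeR adjusted p = 0.00031). Both had narrow groups far apart. The kinase SAK, which starts duplication, was lower too. Among tubulin, kinesin and dynein genes, some of them also centriole genes, 17 of 65 were lower and 4 higher. With size factors from Zld-dependent genes 10 were lower and none higher. At the kinetochore, Spindly, which recruits dynein, was at 15.2, 13.4 and 16.7 CPM and 2.85, 2.67, 2.45 and 3.08 CPM, 5.43-fold lower (log2 fold change -2.44, SE 0.15, edgeR adjusted p = 3.14e-05). The centromeric histone cid was at 6.26, 6.11 and 8.34 CPM and 3.5, 3.19, 3.15 and 2.27 CPM, 2.27-fold lower (edgeR adjusted p = 0.00283), and had dropped from 147 TPM in eggs to 13.5 TPM in Ctrl embryos. The repressor E2f2 fell 2.07-fold (edgeR adjusted p = 0.000345), and 19.9% of its exons overlap Mpp6. Of 60 mitotic cell cycle regulators, cid and E2f2 among them, 6 were lower and 5 higher, both shares below the background. With size factors from Zld-dependent genes 3 were lower and none higher. The higher count was 9 without Ctrl replicate 2, and 3 without Ctrl replicate 3 or 4 or DomKD replicate 2.

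DNA repair had 13 of 58 genes lower and 3 higher. Photolyase (phr), which reverses ultraviolet damage, was at 3.72, 3.49 and 6.78 CPM in Ctrl and 0.407, 0.717, 0.613 and 0.659 CPM in DomKD embryos, 7.55-fold lower (log2 fold change -2.92, SE 0.33, edgeR adjusted p = 0.000404). Xpac, which acts in nucleotide excision repair, was at 1.89, 2.55 and 1.56 CPM and 0.407, 0.326, 0.0876 and 0.293 CPM (6.89-fold lower, edgeR adjusted p = 0.000996). Their egg levels were 59.8 and 65.6 TPM, beside 4.7 and 3.36 TPM in Ctrl embryos. Rad51D fell 5.61-fold, and 43.2% of its exons overlap CG42382. The list held 10 to 15 lower members with single libraries left out, and 1 higher member without Ctrl replicate 3, Ctrl replicate 4 or DomKD replicate 2. In DNA replication, 9 of 44 genes were lower and 7 higher, also among genes of a like role, with the primase gene Prim2 and the clamp loader gene RfC3 lower and Prim1 and RfC38 higher. The origin recognition gene Orc2 fell from 9.45, 6.24 and 7.95 to 3.42, 4.04, 2.37 and 2.27 CPM and the primase gene Prim2 from 11.4, 10.1 and 14.3 to 6.11, 4.89, 3.59 and 5.94 CPM (edgeR adjusted p = 0.00313 and 0.0025). The sliding clamp PCNA rose from 147, 187 and 190 to 280, 246, 278 and 235 CPM and RnrL, the ribonucleotide reductase that makes deoxynucleotides, from 254, 225 and 247 to 362, 372, 345 and 373 CPM (edgeR adjusted p = 0.00408 and 0.000377). The lower count of this list was 3 without Ctrl replicate 4 and 4 without DomKD replicate 2, and the higher count 4 without Ctrl replicate 3 or 4 and 2 with size factors from Zld-dependent genes.

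Meiotic chromosome genes also divided. Of 19, 8 were lower, cohesin genes among them, and 2 were higher. The recombination gene rec fell from 6.67, 5.37 and 7.56 to 0.652, 1.5, 1.4 and 1.03 CPM (5.63-fold, edgeR adjusted p = 0.000314), and 26.6% of its exons overlap alpha-Man-IIb. The 2 that rose encode proteins of the synaptonemal complex, which joins homologous chromosomes in the oocyte, and c(2)M, of the same complex, was among the lower ones. The level of c(3)G was 29.2, 29.7 and 34.1 CPM in Ctrl and 55.4, 51.8, 55.1 and 54.8 CPM in DomKD embryos (log2 fold change 0.81, SE 0.087, edgeR adjusted p = 0.000334). That of corolla was 6.73, 6.78 and 8.66 CPM and 53.2, 39.2, 37.7 and 41.1 CPM, 5.81-fold higher (log2 fold change 2.54, SE 0.16, edgeR adjusted p = 3.34e-05). The egg level of corolla was 1.05 TPM, below the maternal limit, with 7.4 TPM in Ctrl and 41.1 TPM in DomKD embryos. The lower count of the list was 5 without Ctrl replicate 4 and with size factors from Zld-dependent genes.

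Chromatin and transcription genes changed in some of their members. Of 34 Polycomb and Trithorax group genes 6 fell and none rose in edgeR, with none higher at an unadjusted p under 0.05 or by DESeq2 and 1 higher without Ctrl replicate 3. The lower share, 17.6%, was close to the background of 15.5%. The methyltransferase E(z) (FBgn0000629, chromosome 3L, positions 10634575 to 10638130, minus strand), which writes the repressive mark H3K27me3, was at 22.1, 20.1 and 27.8 CPM in Ctrl and 7.01, 5.48, 7.45 and 6.52 CPM in DomKD embryos, 3.53-fold lower (log2 fold change -1.82, SE 0.16, edgeR adjusted p = 0.000143). Of the genes of its complex and its cofactors, Pcl was also lower, and esc, Su(z)12 and Caf1-55 were not called. Both genes of the Polycomb H2A deubiquitinase, a list added after values were seen, were lower. The enzyme caly was at 8.74, 9.2 and 9.36 CPM and 3.26, 2.22, 2.28 and 1.69 CPM (3.86-fold, edgeR adjusted p = 0.000314) with 10.1% of its exons shared with clu, and its partner Asx at 87.7, 72.7 and 93.6 CPM and 30.1, 39.3, 44.7 and 47.6 CPM (2.09-fold, edgeR adjusted p = 0.00113). All DomKD libraries lay below all Ctrl libraries in E(z), caly and Asx. Of 28 Mediator subunits 6 were lower and 1 higher, led by MED17, from 15.8, 14.1 and 20.3 to 5.95, 3.85, 4.29 and 5.28 CPM (3.45-fold, edgeR adjusted p = 0.000314), and kto, the Med12 subunit of the kinase module, from 30.4, 23.6 and 30.8 to 9.13, 10.1, 11.4 and 10.6 CPM (2.75-fold, edgeR adjusted p = 0.00019). Cdk8, the kinase of that module, was among the lower ones. The single higher count became 2 without Ctrl replicate 3 or DomKD replicate 1. The RNA methyltransferase Mettl3, which writes m6A, fell from 15.7, 14.1 and 19.4 to 4.73, 4.63, 6.75 and 4.4 CPM (3.21-fold, edgeR adjusted p = 0.000349). Its partner Mettl14 was called lower by a small step, and 1 of the 7 genes of that complex was lower with any library but DomKD replicate 1 left out. Within the Domino and Tip60 complex list, 1 of 18 genes, dom, was lower and 3 were higher, among them the acetyltransferase Tip60 (78 to 85.7 CPM in Ctrl and 110 to 123 CPM in DomKD embryos, edgeR adjusted p = 0.00154), whose exons overlap tyf on the other strand, and none stayed higher with size factors from Zld-dependent genes.

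Among trafficking genes, the Vps34 complex makes phosphatidylinositol 3-phosphate, a lipid that marks endosomes and forming autophagosomes. The list of this complex was added after values were seen. Of its 5 genes 4 fell, 4 were lower with each library left out and with size factors from Zld-dependent genes, 3 were called with a minimum mean of 100 counts, which Pi3K59F does not reach, and none was higher in edgeR at an unadjusted p under 0.05 or by DESeq2. The regulatory kinase Vps15 (FBgn0260935, chromosome 3R, positions 9240757 to 9245869, minus strand) was at 32.4, 28.9 and 42.5 CPM in Ctrl and 13, 11.8, 14.4 and 10.8 CPM in DomKD embryos, 2.78-fold lower (log2 fold change -1.47, SE 0.15, edgeR adjusted p = 0.00031). The lipid kinase itself, Pi3K59F, was at 9.63, 5.71 and 10.1 CPM and 4.65, 1.83, 3.94 and 2.27 CPM (2.71-fold lower, edgeR adjusted p = 0.0104). Uvrag, the endosomal subunit, was at 15.4, 9.6 and 13.6 CPM and 4.48, 4.17, 3.94 and 6.01 CPM (2.76-fold lower, edgeR adjusted p = 0.00116), and 23.8% of its exons overlap asRNA:CR44972. Atg6, the Beclin subunit, was at 9.63, 9.94 and 12.7 CPM and 5.87, 3.98, 5.43 and 4.76 CPM (2.15-fold lower, edgeR adjusted p = 0.00207). Atg14, the subunit of the autophagy form, did not pass, at 44.1, 39.3 and 40.3 CPM and 46.3, 46.7, 45.8 and 44.7 CPM (log2 fold change 0.15, SE 0.079, edgeR adjusted p = 0.183). Pi3K59F lies 228 nt downstream of ItgaPS5 on the same strand of chromosome 2R, and both fell. In the wider lists, 5 of 45 autophagy and lysosome genes were lower, Vps15 and Atg6 among them, and 6 higher. Of 116 vesicle traffic genes 14 were lower, Vps15 among them, and 9 higher. In both lists the share of lower calls was below the background. With size factors from Zld-dependent genes 1 vesicle gene and no autophagy gene was higher. The vesicle counts were 9 lower and 5 higher without Ctrl replicate 4, 9 and 4 without DomKD replicate 2, and 5 higher without DomKD replicate 3, and the autophagy list had 3 higher without Ctrl replicate 3 or DomKD replicate 2. Among large scaffold genes, bchs fell from 33.7, 26.3 and 42.3 to 4.65, 4.56, 8.41 and 6.01 CPM (5.81-fold, SE 0.23 on the log2 scale, edgeR adjusted p = 0.00019) and Vps13B from 33.2, 26.9 and 36.7 to 5.87, 7.17, 9.9 and 7.47 CPM (4.25-fold, edgeR adjusted p = 0.000138).

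**Figure D4:**
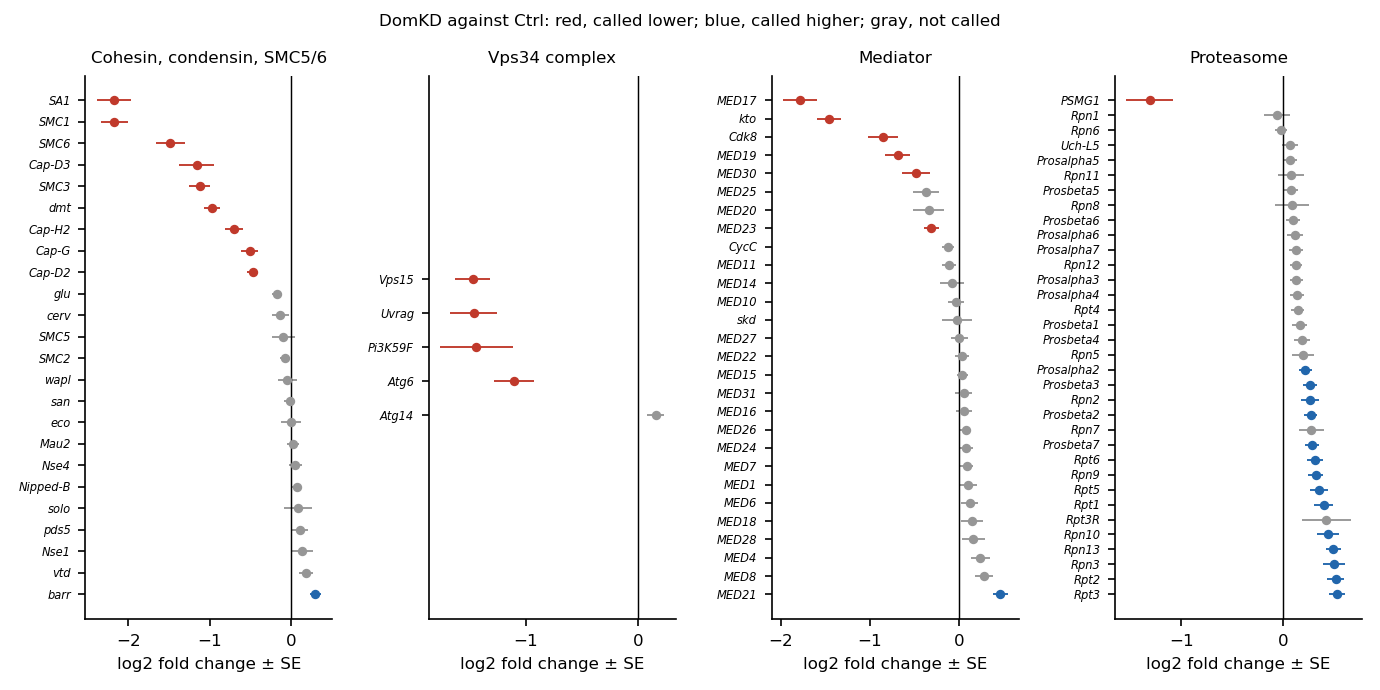
Log2 fold change of DomKD over Ctrl embryos with its SE for every tested member of several complexes, red for genes called lower, blue for genes called higher and gray for genes not called. Called and uncalled subunits of 1 complex lie side by side, as for SMC1 at -2.17 among the cohesin genes and Atg14 at 0.15 beside Vps15 at -1.47.

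Many more small structural RNA genes fell than rose. Spliceosomal small nuclear RNAs pair with splice sites, and small nucleolar and Cajal body RNAs guide the modification of ribosomal and spliceosomal RNA. Of 25 small nuclear RNA genes 11 fell and none rose (1 higher at an unadjusted p under 0.05 in edgeR, none by DESeq2), with a median log2 fold change of -0.65, and of 116 small nucleolar and Cajal body RNA genes 44 fell and 2 rose, with a median of -0.73. Their summed levels show how much this rests on the Ctrl libraries. The small nucleolar RNAs summed to 1902, 2901 and 2633 CPM in Ctrl and 1951, 1773, 2027 and 1948 CPM in DomKD embryos. Ctrl replicate 2 therefore lay within the DomKD range, while Ctrl replicates 3 and 4 lay above it. Without Ctrl replicate 2, 77 were lower, without Ctrl replicate 3, 15, without Ctrl replicate 4, 18, and without DomKD replicate 2, 25, and the 2 higher ones were lost without Ctrl replicate 2 or 4 or DomKD replicate 1, 2 or 3. The small nuclear RNAs summed to 4522, 5836 and 5004 CPM in Ctrl and 4441, 3703, 4315 and 3920 CPM in DomKD embryos, where Ctrl replicate 2 was again the lowest Ctrl library but the groups did not overlap. Without Ctrl replicate 2, 17 were lower, without Ctrl replicate 3 or 4 or DomKD replicate 2, 5, without DomKD replicate 1, 6, and without DomKD replicate 3, 7, and 1 was higher without Ctrl replicate 3. Of 47 spliceosome proteins 2 were lower and 1 was higher, with 4 lower and 2 higher without Ctrl replicate 2, 2 higher without DomKD replicate 1, and 1 lower with any library but Ctrl replicate 2 left out.

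These RNAs are short, and length was therefore examined over all genes. Of 293 tested genes with under 500 nt of exons, 24.2% were lower and 4.44% higher, and most of the small RNA genes are among them. How much of each small RNA a library keeps depends on size selection, and the part of that step in this result was not tested. The copy snRNA:U2:34ABa (FBgn0004191, chromosome 2L, positions 13211925 to 13212116, minus strand) had 209, 299 and 309 CPM in Ctrl and 6.27, 3.85, 5.61 and 3 CPM in DomKD embryos, 58.9-fold lower (log2 fold change -5.88, SE 0.22, edgeR adjusted p = 1.24e-06). U2 is encoded by several near-identical copies that can share reads, so the level of a single copy is uncertain. In the minor spliceosome, which removes a rare type of intron, U12 had 222, 352 and 266 CPM and 184, 153, 196 and 183 CPM (log2 fold change -0.65, SE 0.14, edgeR adjusted p = 0.00946), U4atac 12.7, 27.7 and 19.3 CPM and 11.2, 8.87, 9.99 and 10.8 CPM (edgeR adjusted p = 0.0146) and U11 464, 649 and 607 CPM and 463, 400, 460 and 444 CPM (edgeR adjusted p = 0.0297). The call of U11 was lost without Ctrl replicate 3 (0.114) or Ctrl replicate 4 (0.105). U5:14B was at 7.32, 15.2 and 10.8 CPM and 4.24, 3.65, 4.47 and 4.25 CPM, 2.68-fold lower (edgeR adjusted p = 0.00256).

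Genes of protein synthesis and turnover formed the largest group of higher genes, with small steps in many genes. Of 85 cytoplasmic ribosomal protein genes 31 (36.5%) rose and none fell in edgeR, also at an unadjusted p under 0.05, with a median log2 fold change of 0.17 and none past 2-fold. DESeq2 likewise called none lower. Their summed level was 94590, 109519 and 105478 CPM in Ctrl and 125385, 115611, 116435 and 112563 CPM in DomKD embryos, so every DomKD library lay above every Ctrl library, by little in the nearest case. RpS5a was at 586, 647 and 627 CPM in Ctrl and 992, 874, 832 and 833 CPM in DomKD embryos (log2 fold change 0.51, SE 0.076, edgeR adjusted p = 0.00154). RpL12 was at 1002, 1054 and 1047 CPM and 1430, 1328, 1307 and 1293 CPM (log2 fold change 0.37, edgeR adjusted p = 0.00191). RpS10b was at 730, 768 and 717 CPM and 1013, 945, 932 and 902 CPM and RpS3A at 2987, 3585 and 3515 CPM and 4800, 4315, 4119 and 4108 CPM (edgeR adjusted p = 0.00272 and 0.0112), with no overlap in either. RpL3, a core protein of the large subunit, was at 2700, 2850 and 2931 CPM and 3413, 3429, 3433 and 3295 CPM (log2 fold change 0.26, edgeR adjusted p = 0.0074), and asRNA:CR31144 overlaps part of its exons on the other strand. The number of higher genes was 14 without Ctrl replicate 2 or Ctrl replicate 4 and 16 without DomKD replicate 2. With size factors from Zld-dependent genes, which shift the median of all genes to -0.0949, it was 1, and the median of the list stayed above 0 at 0.0723.

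The proteasome, which degrades tagged proteins, had 14 of 34 genes higher and 1 lower. Rpt3, an ATPase of its cap, was at 87.6, 91.2 and 80.1 CPM in Ctrl and 118, 123, 118 and 138 CPM in DomKD embryos (log2 fold change 0.53, SE 0.08, edgeR adjusted p = 0.0017). Rpt2, another ATPase, was at 126, 148 and 125 CPM and 186, 174, 195 and 203 CPM (log2 fold change 0.51, edgeR adjusted p = 0.00229), and Rpn3, a lid subunit, at 97, 94.2 and 80.8 CPM and 119, 132, 113 and 149 CPM (log2 fold change 0.50, edgeR adjusted p = 0.00829). The lower gene was PSMG1, an assembly chaperone. Without Ctrl replicate 4, 7 were higher. Among heat shock proteins and chaperones 10 of 33 were higher and 3 lower, with CCT7 and CCT8 of the chaperonin that folds actin and tubulin at log2 fold changes of 0.56 and 0.52 (edgeR adjusted p = 0.00818 and 0.00528). Without Ctrl replicate 3, 6 were higher, without Ctrl replicate 4, 5, and without DomKD replicate 4, 5 were lower. The neighbouring small heat shock genes Hsp26 and Hsp23 differed in direction, with Hsp26 at 136, 88.8 and 102 CPM in Ctrl and 180, 190, 143 and 222 CPM in DomKD embryos and Hsp23 at 71.6, 84.5 and 85.2 CPM and 33.9, 44.7, 40 and 43.5 CPM (edgeR adjusted p = 0.0102 and 0.000373). In the nucleolus, where ribosomes are assembled, 11 of 38 genes were higher and 1 lower. Nop60B, the pseudouridine synthase of ribosomal RNA, rose from 559, 547 and 533 to 839, 869, 765 and 809 CPM (log2 fold change 0.59, SE 0.062, edgeR adjusted p = 0.000311), and small nucleolar RNA genes lie within it. Fib, the RNA methyltransferase fibrillarin, rose from 119, 112 and 121 to 149, 169, 155 and 151 CPM (edgeR adjusted p = 0.00277). Polr1A, the largest subunit of the polymerase of ribosomal RNA and not in this list, fell from 49.7, 39.3 and 48.4 to 22.6, 23.9, 24.3 and 28.7 CPM (edgeR adjusted p = 0.000947). The count of higher nucleolar genes was 7 without DomKD replicate 2, and the lower one, Rrp4, was lost without Ctrl replicate 2, 3 or 4 or DomKD replicate 2 or 3. With size factors from Zld-dependent genes no proteasome gene and no chaperone was called higher, and 2 nucleolar genes were.

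A larger step was seen in eIF6, which keeps the ribosomal subunits apart and acts in making the large subunit. It rose from 18, 18.9 and 19 to 43, 39.4, 38.6 and 42.9 CPM, 2.2-fold (log2 fold change 1.14, SE 0.092, edgeR adjusted p = 0.000118). The gene lies at positions 23849246 to 23850301 on chromosome 2R and is transcribed away from gbb, whose span starts 1260 nt further on at 23851562. The neighbour gbb fell, with a log2 fold change of -2.79, so the divergent genes moved in opposite directions. Neighbouring genes were also compared over the whole table. Among protein-coding genes with a divergently transcribed tested neighbour within 2000 nt (1601 pairs), 14.3% were lower, and of the neighbours of lower genes 16.2% were lower. In tandem pairs the shares were 15.8% and 20.9%, and in convergent pairs 14.8% and 15.9%.

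**Figure D5:**
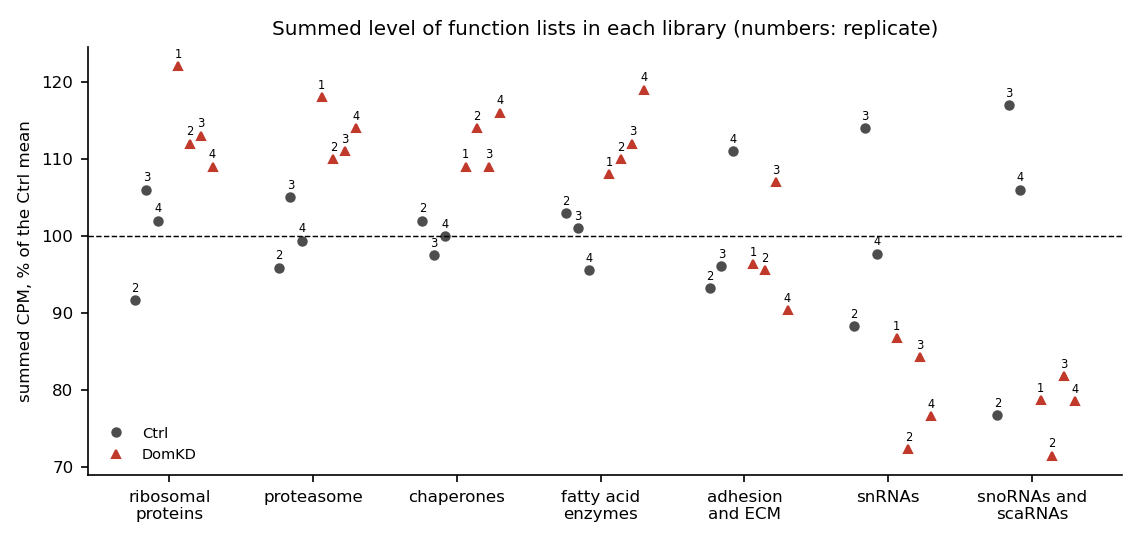
Summed CPM of function lists in each library, in percent of the Ctrl mean, with circles for Ctrl and triangles for DomKD libraries and the replicate number above each point. Ctrl replicate 2 falls among the DomKD libraries for the small nucleolar RNAs, and every DomKD library lies above every Ctrl library for the ribosomal proteins.

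Metabolic genes changed in both directions. Of 44 genes of glycolysis, trehalose and the TCA cycle 2 were lower and 4 higher, and of 69 nuclear oxidative phosphorylation genes 8 were lower and 3 higher, all below the background shares. The sugar list had 7 higher without Ctrl replicate 2, 2 without Ctrl replicate 4 or DomKD replicate 2, and 1 with size factors from Zld-dependent genes. The oxidative phosphorylation list had 1 lower with size factors from Zld-dependent genes or without Ctrl replicate 3 or DomKD replicate 2 or 4, 2 without Ctrl replicate 4 and 4 without DomKD replicate 3, and its higher count was at most 2 with any library left out and 0 with size factors from Zld-dependent genes, without Ctrl replicate 4 or without DomKD replicate 2. Fatty acid and acetyl-CoA enzymes, a list added after values were seen, had 8 of 14 genes higher and 1 lower. The lipid metabolism list set with the design had 10 of 44 higher (22.7%) and 4 lower. FASN1, the fatty acid synthase, rose from 6.62, 8.46 and 8.11 to 14.2, 14.7, 23 and 27.4 CPM, 2.57-fold (log2 fold change 1.36, SE 0.25, edgeR adjusted p = 0.00408). AcCoAS, which makes acetyl-CoA from acetate, rose from 32.9, 25.4 and 22.4 to 57.1, 63.9, 48 and 71.6 CPM, 2.23-fold (edgeR adjusted p = 0.00118). Fatp1, a fatty acid transport protein, rose from 8.68, 7.65 and 6.63 to 17, 18.1, 13.3 and 20.4 CPM, 2.24-fold (edgeR adjusted p = 0.0014), and Pex11ab, which divides peroxisomes, from 2.19, 2.62 and 2.34 to 7.42, 7.82, 7.54 and 7.69 CPM, 3.2-fold (edgeR adjusted p = 0.000222). The groups did not overlap in any of these 4 genes, and DomKD replicate 4 was the highest library for FASN1, AcCoAS and Fatp1. Lsd-1, a protein of the lipid droplet surface, fell from 4.19, 4.36 and 3.43 to 1.47, 1.04, 1.93 and 1.17 CPM (2.89-fold, edgeR adjusted p = 0.00211). The higher count of the fatty acid list was 4 without Ctrl replicate 3 or 4 and with size factors from Zld-dependent genes, and 5 without DomKD replicate 2. The lower gene, CPT2, stayed called with DomKD replicate 3 left out and with no other library left out.

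In sugar metabolism, UGP, which makes UDP-glucose, rose from 43.9, 34.4 and 35.2 to 87.4, 90.7, 75.4 and 103 CPM (2.36-fold, edgeR adjusted p = 0.000298), and 20% of its exons overlap PGRP-LF. Pgi, the isomerase of glycolysis, fell from 19, 16.2 and 17.8 to 9.13, 8.15, 6.66 and 7.25 CPM (2.26-fold, edgeR adjusted p = 0.000492). In the pentose phosphate pathway, Rpi, the ribose-5-phosphate isomerase, fell from 32.2, 34 and 29.2 to 6.93, 6.91, 4.47 and 6.3 CPM, 5.14-fold (log2 fold change -2.36, SE 0.15, edgeR adjusted p = 3.34e-05), and 16.6% of its exons overlap CR30409 and CG3500. Pgd, the dehydrogenase of the same pathway, was higher, from 27, 19.7 and 21.1 to 38.9, 36.2, 31.4 and 42.3 CPM (edgeR adjusted p = 0.00562), and not with size factors from Zld-dependent genes (0.0823). Of 25 solute carriers 10 were lower, 2 higher and 13 not called. CarT, a carcinine transporter of the later eye, fell at a low level from 1.36, 1.21 and 1.87 to 0.407, 0.196, 0.0876 and 0.22 CPM (6.23-fold, edgeR adjusted p = 0.0017). The sugar transporter sut1 fell from 7.86, 7.72 and 9.05 to 2.53, 2.74, 2.72 and 3.08 CPM (2.95-fold, SE 0.16 on the log2 scale, edgeR adjusted p = 0.000277), and the amino acid transporter path from 43.5, 31.4 and 45.7 to 16.5, 15.2, 12.5 and 16.2 CPM (2.66-fold, edgeR adjusted p = 0.000331). The egg levels of sut1 and path were 197 and 367 TPM, beside 6.76 and 25.1 TPM in Ctrl embryos. Mct1, a monocarboxylate transporter, rose from 2.3, 2.01 and 1.56 to 5.87, 9.97, 6.48 and 7.84 CPM (3.82-fold, edgeR adjusted p = 0.00069), and 10% of its exons overlap asRNA:CR43637. The lower count of the solute carriers was 5 without Ctrl replicate 2 or 4 and 6 without DomKD replicate 2, and 1 was higher without Ctrl replicate 4 or DomKD replicate 2.

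Detoxification enzymes changed in both directions. Of 27 cytochrome P450 genes 6 were lower (22.2%) and 4 higher (14.8%). Of 33 glutathione S-transferase and UDP-glycosyltransferase genes 3 were lower (9.09%) and 6 higher (18.2%). The background shares were 15.5% lower and 10.6% higher. Of the P450 genes 14 were not maternally deposited, a class with 25.4% lower. Cyp6a13 rose from 0.945, 1.41 and 1.25 to 8.39, 7.76, 4.99 and 6.96 CPM (5.87-fold, edgeR adjusted p = 0.00026), and Cyp6d4 fell from 19, 28.5 and 21.3 to 6.52, 7.43, 8.15 and 5.28 CPM (3.35-fold, edgeR adjusted p = 0.000314). GstE10 was at 0.236, 0.0671 and 0.312 CPM in Ctrl, or at most 4 counts, and at 2.77, 2.74, 1.14 and 1.61 CPM in DomKD embryos (edgeR adjusted p = 0.00177). GstE3 rose from 0.354, 0.671 and 0.702 to 1.71, 1.3, 1.49 and 2.27 CPM (edgeR adjusted p = 0.00894). GstT3 fell from 53.5, 70.8 and 32.8 to 17.5, 18.9, 19.2 and 21 CPM (2.74-fold, edgeR adjusted p = 0.00145), with Ctrl libraries that spread widely and DomKD libraries that did not. The aldehyde dehydrogenase Aldh, which detoxifies acetaldehyde, rose from 9.27, 13.2 and 9.75 to 35.9, 41.9, 35.5 and 30 CPM, 3.34-fold (log2 fold change 1.74, SE 0.16, edgeR adjusted p = 0.000202). Its egg level was 432 TPM, with 10.3 TPM in Ctrl and 33.1 TPM in DomKD embryos.

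Among the regulators of oocyte RNA and germ plasm, all but 1 of them maternally deposited, 11 of 44 were higher and 4 lower. The gene egl, whose product links RNA to the dynein motor, rose from 52, 37.3 and 37.2 to 82.4, 93.1, 87 and 113 CPM (2.22-fold, SE 0.15 on the log2 scale, edgeR adjusted p = 0.000742). The thioredoxin dhd, which acts on sperm chromatin at fertilization, rose from 38.7, 36.8 and 40.6 to 79.2, 103, 47.7 and 74.7 CPM (1.97-fold, edgeR adjusted p = 0.00818). Its egg level was 5444 TPM, beside 80.7 TPM in Ctrl and 152 TPM in DomKD embryos. The oogenesis gene otu had 168, 131 and 126 CPM in Ctrl and 199, 208, 184 and 242 CPM in DomKD embryos (edgeR adjusted p = 0.0085). Outside this list, the boule gene bol, which acts in meiosis, rose from 4.9, 2.82 and 4.99 to 12.9, 10.6, 10.2 and 11.4 CPM (edgeR adjusted p = 0.00145). Its egg level was 0.347 TPM. The cytoplasmic poly(A) polymerase gene Gld2 is the 1 listed gene without maternal deposit (0.0171 TPM in eggs). It fell from 5.97, 4.83 and 4.76 to 1.3, 0.847, 1.4 and 0.953 CPM (edgeR adjusted p = 0.00031). The gene exu, which anchors bicoid RNA in the oocyte, was also lower, from 46.4, 42.6 and 41.2 to 23.3, 28.7, 22.3 and 32.1 CPM (1.63-fold, edgeR adjusted p = 0.0046), and 12.1% of its exons overlap galla-1. DomKD replicate 4 was the highest DomKD library for egl, otu and exu, and DomKD replicate 2 for dhd. Pole cell markers had 1 higher gene, vas, of 12, a call lost without Ctrl replicate 3 or 4 or DomKD replicate 2 or 4, and none lower in edgeR or DESeq2, with 1 lower at an unadjusted p under 0.05 and 1 called without DomKD replicate 4. Size factors from Zld-dependent genes left 2 of the 11 oocyte genes higher, and leaving out Ctrl replicate 3, Ctrl replicate 4 or DomKD replicate 2 left 7, 5 and 7.

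Several of the largest changes are given here, with conv from the gastrulation list and nrv2 from the ion channel and glial lists. Of 16 gastrulation genes 2 were lower (12.5%) and 1 higher. Of 36 ion channels and pumps 6 were lower (16.7%) and 3 higher, beside background shares of 15.5% lower and 10.6% higher. An ABC transporter gene (FBgn0010549) was at 7.97, 19.7 and 21 CPM in Ctrl and 0.407, 0.587, 0.175 and 0.22 CPM in DomKD embryos, 43.9-fold lower (SE 0.45 on the log2 scale, edgeR adjusted p = 0.000138), and Ctrl replicate 2 lay well under the other Ctrl libraries. The GATA factor grn fell from 9.57, 3.89 and 8.5 to 1.79, 0.13, 1.4 and 2.34 CPM (5.25-fold, edgeR adjusted p = 0.0103), with DomKD replicate 2 far below the other DomKD libraries. The gene conv, a leucine-rich repeat protein of the tracheal tubes, fell from 9.92, 7.79 and 14 to 2.2, 0.782, 1.84 and 0.953 CPM (7.45-fold, edgeR adjusted p = 0.000451). The sodium pump subunit nrv2 fell from 4.61, 4.5 and 5.61 to 0.57, 0.391, 0.701 and 0.366 CPM (9.7-fold, SE 0.26 on the log2 scale, edgeR adjusted p = 0.000118). Other large falls were those of CG18766 (14.5, 11 and 16.4 to 1.71, 0.456, 1.93 and 0.953 CPM, 11.4-fold) and CG42404 (12, 6.58 and 9.2 to 1.06, 0.782, 1.14 and 0.586 CPM, 10.5-fold), with edgeR adjusted p of 0.00023 and 0.000138. On the other side, rgn, known from the regeneration of imaginal discs, rose from 1.18, 1.14 and 1.01 to 12.1, 11.3, 9.55 and 12.3 CPM (10.1-fold, edgeR adjusted p = 1.74e-05), with narrow groups far apart. CG30159 rose from 2.84, 1.34 and 1.64 to 21.3, 13.8, 7.89 and 13.8 CPM (7.19-fold, edgeR adjusted p = 0.000759). The zinc transporter Zip89B rose from 2.07, 1.88 and 1.01 to 6.85, 6.26, 4.29 and 5.94 CPM (3.47-fold, edgeR adjusted p = 0.00153). Of genes without a described function, CG32373 rose 5.58-fold, CG6180 5.03-fold, CG12991 4.85-fold and CG10738 3.15-fold, and CG31886 fell 5.16-fold (edgeR adjusted p = 5.18e-05, 0.000347, 0.00019, 0.0017 and 0.00074). None of these genes overlapped between groups.

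The length of the gene was compared as well, since nuclei at this stage have little time to transcribe. Among genes without maternal deposit, 14.1% of the 213 with a span under 1 kb were lower and 33.2% of the 190 between 5 and 10 kb. For longer spans it was 23.9% of the 163 between 10 and 20 kb, 33.1% of the 166 between 20 and 50 kb and 26.7% of the 101 over 50 kb. The share thus rose up to 10 kb and showed no further order. Maternally deposited genes differed, with 13.3% lower and 8.65% higher among the 694 under 1 kb and 7 lower and 18 higher genes among the 107 over 50 kb. Markers of late or foreign tissue were checked in the same libraries. Of 6 muscle markers 1 was lower (bt), and of 4 hemocyte markers ush and gcm were lower, both also regulators of other early tissues. Without Ctrl replicate 2 or 4 or any of DomKD replicates 2, 3 and 4, 1 hemocyte marker was lower. Of 6 tested eggshell, yolk and follicle genes none was called in edgeR, at an unadjusted p under 0.05 or by DESeq2. The yolk protein genes Yp1, Yp2 and Yp3, made in the fat body and the follicle cells of the mother, had 79 to 94 counts in Ctrl replicate 3, 9 to 25 in DomKD replicate 2 and at most 5 in the other embryo libraries. Their part in the results was not tested beyond the fits without those libraries.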

How the data were processed

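RNA was measured in 11 libraries (TruSeq Stranded Total RNA), 7 of them used for the comparison. Per gene counts come from featureCounts, run by the authors inside a snakePipes workflow on trimmed reads and the dm6 build. What they deposited is the raw count. The aligner, the strand setting and the handling of reads with several positions are not given in the sources used here. The table has 1 further column that matched no listed sample and was not used.

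From the counts, edgeR 4.0.16 in R 4.3.3 (TMM, quasi-likelihood test, Benjamini-Hochberg adjustment, prior count 2) compared 4 DomKD with 3 Ctrl embryo libraries for genes whose count averaged 10 or more. DESeq2 1.42.0, the tool of the study's methods, served as an alternative test. For GRO-seq and Pol II occupancy the study scaled on its set of zygotic Zelda targets, and its methods give no scaling for RNA-seq. The TMM scaling of the main fit differs from that, and the alternative with Zld-dependent genes is the nearest to it. TPM was computed from the deposited counts and exon lengths. With 11809453 to 16310645 counts per library, genes near the limit of 10 counts carry a large counting error. The test was tested on simulated counts. Alternatives covered the normalization (DESeq2 size factors, library size alone, size factors from 82 Zld-dependent genes, taken from the part of the study's class table held here), the test, the filter, the egg libraries, a replicate block and each library left out.

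The members and lists were chosen with earlier results of these data known. The rule named dom, the 15 largest changes each way among genes averaging 50 or more counts in groups that did not overlap, and up to 4 members per list and direction with the smallest adjusted p. It named 402 genes, and the text describes 137 of them, picked with their values known. One result is not reported here. Of the 82 lists, 9 (laminins and integrins, cadherins, heparan sulfate, cohesin, Vps34, deubiquitinase, m6A, centriole, fatty acid) were added after values were seen, and wrongly matched symbols were removed from others. LanA, wb, if, mys, side-V, dpr19, Dscam2, Ubx, Abd-B, tup, ind, stumps, ths, htl, eve, ftz, sty, Cap-D3, Rpi, Atg14, U11, U4atac, RpS3A, RpL3, Hsp26, bol, roX1 and genes named without a value fall outside the rule and were chosen after their values were seen. Gene names and positions come from an Ensembl annotation in dm6 coordinates. Plots used matplotlib 3.10.9 (Python 3.11.15).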

Additional observations from a re-analysis of the deposited data

Results flagged for a closer look

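For each gene described, the 4 DomKD libraries were checked for a library far from the others, by the gap to its nearest neighbour over the range of the group against Dixon's 95% critical value for 4 samples. Of 164 genes 7 had one, and chance flags about 1 in 20 groups. The level of tld was 264 CPM in DomKD replicate 4 and 319 to 325 CPM in the other DomKD libraries (ratio 0.899), and that of RpL3 was 3295 CPM in that library and 3413 to 3433 CPM in the others (0.858). In the same library fz2 was at 33.6 CPM against 25.5 to 25.8 CPM (0.957), and dpr4 at 0.0733 CPM, from 1 count, against 0 CPM. DomKD replicate 2 held wit at 1.11 CPM against 1.47 to 1.49 CPM (0.936) and c(3)G at 51.8 CPM against 54.8 to 55.4 CPM (0.834). DomKD replicate 3 held Mettl3 at 6.75 CPM against 4.40 to 4.73 CPM (0.86). In all 7 genes the distant library stayed on the same side of the Ctrl libraries as the rest of its group, and each gene was called in edgeR without that library.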

How the results depend on the processing

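The 1195 lower and 820 higher genes changed in number with the scaling, the filter and the libraries. With library size alone 1415 were lower and 551 higher (72% of calls lower, beside 59.3%), and with size factors from Zld-dependent genes, which moved the median log2 fold change of all genes from 0.0028 to -0.095, 986 were lower and 150 higher (86.8%). Of the 820 higher genes, 148 were called higher there. DESeq2 gave 1246 lower and 1026 higher. A minimum mean of 100 counts left 694 lower and 507 higher of 5992 genes tested, and with the egg libraries in the fit 1302 were higher. The 7 fits that each left out 1 library gave 799 to 1076 lower and 483 to 748 higher genes, with the fewest lower without Ctrl replicate 4 (493 higher) and the fewest higher without DomKD replicate 2. The log2 fold change of dom lay between -4.85 and -4.54 in these fits. Replicate numbers did not pair the libraries, since deviations of same-numbered Ctrl and DomKD libraries correlated at 0.0504, -0.0742 and -0.363. With a replicate block 784 were lower and 424 higher, and the count of higher ribosomal protein genes was 7, of proteasome genes 5 and of small nucleolar RNA genes lower 26. Of 163 single genes beside dom, 25 lost their call with size factors from Zld-dependent genes, 7 with the block, up to 9 when a library was left out (without Ctrl replicate 4), 1 with library size alone and none with DESeq2, DESeq2 size factors, no filter or the eggs. Only mys, which was never called, changed sign, at -0.0263 with library size alone, -0.0662 with size factors from Zld-dependent genes, -0.0014 with a minimum mean of 100 counts and -0.0054 to 0.062 with a library left out, lowest without Ctrl replicate 3. A higher filter or fewer libraries tests less by construction. For the other changes the cause was not tested. Low counts limit the lower genes most, since 326 of the 568 at least 2-fold lower ones had a mean under 50 counts.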

Other observations

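In the ecdysone list, 4 of 17 genes were higher and 1 lower. The list holds genes of the synthesis and import of the steroid and of the response to it. The lower gene was Oatp74D, which imports ecdysone, and the higher ones were br, Eip75B, ftz-f1 and sad, an enzyme of ecdysone synthesis. Eip75B, a nuclear receptor, rose from 5.49, 3.76 and 3.59 CPM in Ctrl to 7.82, 7.82, 9.64 and 11.2 CPM in DomKD embryos (log2 fold change 1.08, SE 0.21, edgeR adjusted p = 0.00539). The gene br, a zinc finger factor, was at 0.709, 0.403 and 0.702 CPM and 1.63, 1.3, 1.23 and 1.32 CPM (edgeR adjusted p = 0.0188), a call lost without Ctrl replicate 3 (0.0601) and with size factors from Zld-dependent genes (0.0515). The receptor ftz-f1, partner of the pair-rule gene ftz, was at 243, 262 and 254 CPM and 303, 352, 333 and 311 CPM (edgeR adjusted p = 0.00517), and not called with size factors from Zld-dependent genes (0.324). In br, Eip75B and ftz-f1 all DomKD libraries lay above all Ctrl libraries. Without Ctrl replicate 4 no ecdysone gene was lower, and 1 was higher with size factors from Zld-dependent genes.

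In the Toll and Imd list, which carries both dorsoventral and immune signals, 4 of 22 genes were higher and none lower in edgeR or DESeq2, with 2 lower at an unadjusted p under 0.05 in edgeR. The NF-kappaB factor Rel was at 38.8, 31.1 and 36.8 CPM in Ctrl and 54.9, 49.7, 45.7 and 54.7 CPM in DomKD embryos (log2 fold change 0.53, SE 0.11, edgeR adjusted p = 0.00635). The adaptor Myd88 was at 63.3, 67.9 and 49.9 CPM and 75.5, 86.9, 75.6 and 80.4 CPM (edgeR adjusted p = 0.0252), a call lost without Ctrl replicate 4 (0.0648) or DomKD replicate 2 (0.073). Without either library 2 genes of the list were higher, without Ctrl replicate 3, 1 was lower, and with size factors from Zld-dependent genes none was higher.

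The roX RNAs, which guide the dosage compensation complex to the X chromosome of males, were called in 1 of 2 cases, and the difference between them was not tested. The RNA roX2 (lncRNA:roX2) was at 1.12, 1.28 and 2.26 CPM in Ctrl and 0.326, 0.717, 0.526 and 0.586 CPM in DomKD embryos (log2 fold change -1.47, SE 0.37, edgeR adjusted p = 0.0171), a call lost without Ctrl replicate 4 (0.0659). The RNA roX1 (lncRNA:roX1) was far more abundant, at 606, 905 and 852 CPM and 1035, 938, 944 and 684 CPM, with overlapping groups and no call (log2 fold change 0.19, SE 0.16, edgeR adjusted p = 0.409). Of 252 long non-coding RNA genes in all, 40 were lower and 23 higher, close to the background shares of 15.5% and 10.6%, and 15 were higher without Ctrl replicate 2.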
